A study of Mus musculus with 8 samples.

Results

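A set of 10 germline genes was followed for H3K27me3 in primordial germ cells (PGCs) of the mouse, from which eggs and sperm later form. They were Piwil2, Mov10l1, Tdrd1, Asz1, Mael, Ddx4, Dazl, Tex19.1, Tex101 and Slc25a31, taken by symbol from a list of piRNA and genome-defence germline genes. All 10 were found in every count table, among 21352 genes, of which 20368 lie on chromosomes 1 to 19. The assay was low-input CUT&RUN, in which an antibody brings a nuclease to its target in nuclei and the released DNA is sequenced. The H3K27me3 libraries came from female PGCs at E12.5 and at E11.5. The control libraries used IgG, which measures cleavage without a target, and came from male PGCs at E11.5 and from female PGCs at E12.5 and E13.5. All embryos were B6 x Cast hybrids with 1 copy of an Oct4-eGFP reporter. Females carried an Xist knockout on 1 of their X chromosomes (Xist KO/+:Oct4-eGFP+/-), and males carried it on their only X (Xist KO/Y:Oct4-eGFP+/-). Each library came from embryos of 1 sex that were pooled before the cells were sorted. The labels list 8 samples, and the 3 without a table (second replicates of the H3K27me3 groups) were not analysed here. Each group thus had 1 library, with no measure of replicate spread and no test between conditions, and the tests on allele shares compare the reads of single libraries.

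H3K27me3 is placed by Polycomb repressive complex 2 and covers silent developmental genes such as the Hox clusters. The piRNA pathway silences transposons in germ cells: Piwi proteins bind small piRNAs, which are made and loaded on germ granules near mitochondria with the help of helicases and Tudor-domain proteins. Many genes of this pathway have CpG-rich promoters that are methylated in somatic cells and lose that methylation when PGCs are reprogrammed, so they are much studied at these stages.

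The tables give, per gene, the reads that could be assigned to each of the 2 alleles. Allele-assigned reads on autosomes numbered 5020062 and 2356356 in the H3K27me3 libraries of E12.5 and E11.5, and 1357583, 1515532 and 5705401 in the IgG libraries of E11.5, E12.5 and E13.5. A level here is the reads of both alleles over the whole gene, as counts per 1000000 of these autosomal reads (CPM), so a narrow peak at a promoter cannot be told from the same reads spread over the gene. A ratio of levels was taken as log2 after adding 1 CPM to both, which understates ratios of genes with few reads. Genes with 20 or more reads over both libraries count as measured, and a ratio was called at 2-fold or more. The read ratio without that addition carries an exact 95% interval, which covers counting error only. PCR reads are not independent molecules, so these intervals are too narrow if duplicates remain.

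The median autosomal gene was itself lower in H3K27me3 than in IgG, at -0.54 (log2) for E12.5 and -0.49 for E11.5. Ratios are therefore given on the scale of all autosomal reads and also relative to that median gene. Of 39 Hox genes, the known Polycomb targets, 32 were measured at E12.5 and 29 at E11.5, all of these at least 2-fold higher in H3K27me3, with medians of 2.83 and 3.07. Some of them reached 20 reads through the H3K27me3 library alone, so a Hox gene without enrichment was less likely to be measured. Housekeeping genes were at least 2-fold higher in 0 of 13 and 0 of 9, with medians of -1.08 and -1.17.

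The promoters of 4 members are shown because these are the highest and the lowest of those with a sequence and at least 20 reads at E12.5: Tex101 and Slc25a31 at the top, Ddx4 and Mov10l1 at the bottom. They are RefSeq sequences of GRCm38.p6, from 250 bases before to 50 bases after a start of transcription, at chr7:24672001-24672300 (minus strand), chr3:40708621-40708920 (plus strand), chr13:112652261-112652560 (minus strand) and chr15:88982744-88983043 (plus strand) in the same order. The starts used for Ddx4 and Mov10l1 lie inside the gene spans given below, so they are not the outermost ends of those genes. Capitals mark GCGGGA, the core bound by E2F factors, or its reverse complement TCCCGC, and CACGTG, the palindromic E-box; the motifs do not overlap. 
Tex101: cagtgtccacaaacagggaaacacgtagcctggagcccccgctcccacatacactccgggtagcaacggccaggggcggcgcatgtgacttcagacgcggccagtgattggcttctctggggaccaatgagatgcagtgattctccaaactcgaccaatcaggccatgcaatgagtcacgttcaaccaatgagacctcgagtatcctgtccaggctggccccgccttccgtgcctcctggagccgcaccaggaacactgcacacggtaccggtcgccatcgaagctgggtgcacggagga
Slc25a31: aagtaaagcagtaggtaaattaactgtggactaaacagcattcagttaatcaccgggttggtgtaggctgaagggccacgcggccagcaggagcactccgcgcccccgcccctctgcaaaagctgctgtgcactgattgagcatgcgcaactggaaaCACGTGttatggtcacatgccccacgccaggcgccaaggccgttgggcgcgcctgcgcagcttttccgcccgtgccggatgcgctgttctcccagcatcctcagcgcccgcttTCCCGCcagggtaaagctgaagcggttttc
Ddx4: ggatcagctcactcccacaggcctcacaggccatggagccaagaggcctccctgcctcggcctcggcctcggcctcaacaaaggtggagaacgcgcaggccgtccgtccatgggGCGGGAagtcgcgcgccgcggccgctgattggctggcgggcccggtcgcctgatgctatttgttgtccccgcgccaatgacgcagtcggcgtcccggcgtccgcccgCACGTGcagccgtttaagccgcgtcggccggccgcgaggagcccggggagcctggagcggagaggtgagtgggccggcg
Mov10l1: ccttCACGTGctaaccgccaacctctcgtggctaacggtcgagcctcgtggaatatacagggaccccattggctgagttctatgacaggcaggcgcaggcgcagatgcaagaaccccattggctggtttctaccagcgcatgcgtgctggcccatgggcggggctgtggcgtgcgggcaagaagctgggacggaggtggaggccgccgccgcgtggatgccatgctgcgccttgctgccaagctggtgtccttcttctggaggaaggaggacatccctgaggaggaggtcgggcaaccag

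Of the 9 members with a promoter entry, 4 held the E2F core (Ddx4, Mael, Tex19.1 and Slc25a31) and 5 held the E-box (Ddx4, Mael, Tdrd1, Mov10l1 and Slc25a31) in the first listed window. Among 31396 windows of the same 300-base length on autosomes, 20.2% held the core and 7.14% the E-box. Tex101, Asz1 and Dazl held neither. CpG dinucleotides ranged from 16 in Tex19.1 to 38 in Ddx4, against a median of 7 over all windows with quartiles of 3 and 21. Both motifs contain a CpG, so the shares over all windows are not a matched background for the members. Those shares also count every listed window of a gene, not the first alone. The highest and the lowest members by ratio all had more CpGs than the median window, with 19 CpGs in Tex101, 22 in Slc25a31, 20 in Mov10l1 and 38 in Ddx4. A motif match is a description of the letters and not a bound site.

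H3K27me3 reads stood above background at 1 member, Tex101, at both stages. At 5 members it lay below every control, and at the other 4, Slc25a31 among them, the side depended on the libraries compared. Both H3K27me3 libraries lay above all 3 IgG libraries at 1 member, Tex101, where 23.9% of 18040 autosomal genes did so. Both lay below all 3 IgG libraries at 5 members (Dazl, Ddx4, Piwil2, Mov10l1 and Tex19.1), where 49.7% of genes did so. Dazl and Tex19.1 had under 20 reads in H3K27me3 and IgG of the same stage. At E11.5 the read ratio intervals of Dazl, Tex19.1 and Mov10l1 include 1, so their place there is within counting error. At Mael, Tdrd1, Asz1 and Slc25a31 the libraries overlapped. The share below is thus that of the background, and this split was made after the levels had been seen.

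**Figure D1:**
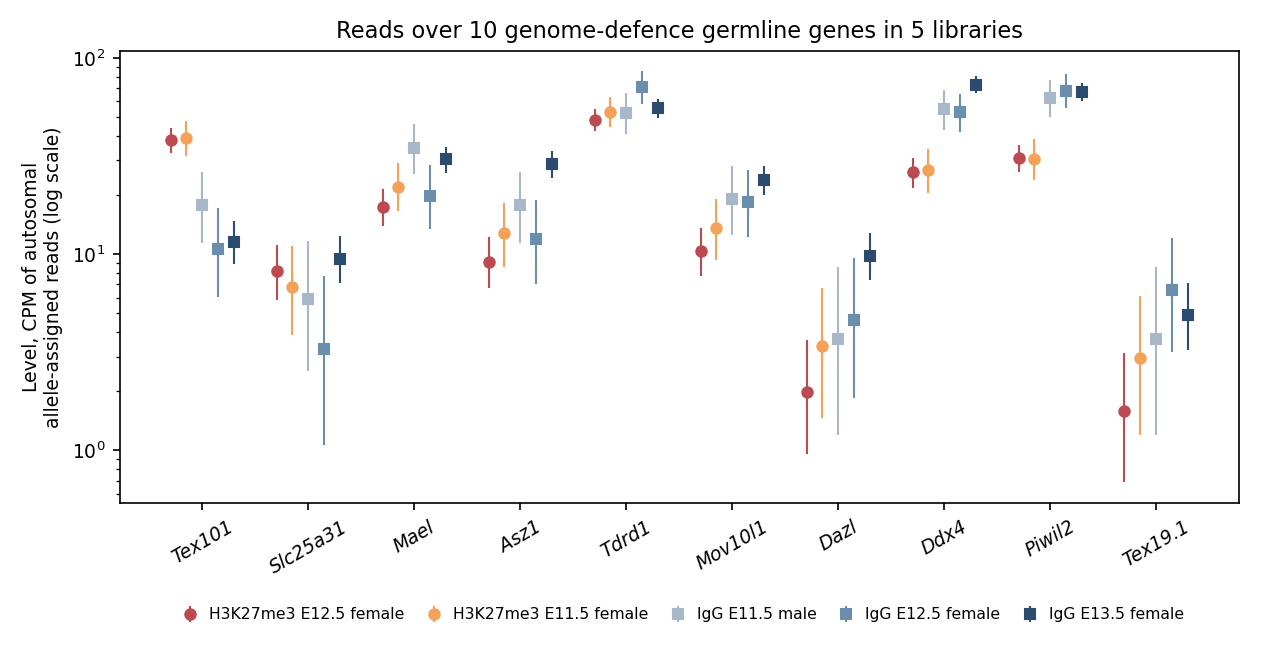
Level in CPM (log axis) at each of the 10 members, in both H3K27me3 libraries (circles) and the 3 IgG libraries (squares), with exact 95% Poisson intervals for counting error. Tex101 is at 38.0 and 39.0 CPM in H3K27me3, above its 3 IgG libraries, whereas Ddx4 and Piwil2 lie below theirs.

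Tex101 encodes a glycoprotein anchored on the surface of germ cells and needed for sperm to enter the oviduct, and it is no piRNA factor. RefSeq places it on the minus strand at chr7:24668012-24672050, a span of 4039 bases, while the tables give it a longer model of 8669 bases. It had 38.0 CPM (191 reads) in H3K27me3 at E12.5 and 39.0 (92 reads) at E11.5. In IgG it had 17.7 CPM (24 reads) at E11.5, 10.6 (16 reads) at E12.5 and 11.6 (66 reads) at E13.5. The H3K27me3 values do not overlap the IgG values, and the E11.5 male IgG library is the highest of the controls. In these pools of cells, more marked cells and more of the mark per cell cannot be told apart. At E12.5 the log2 ratio was 1.76, or 2.30 relative to the median gene, and 94.4% of the 16526 measured genes lay lower. The read ratio was 3.6 with a 95% interval of 2.16 to 6.43. At E11.5 the log2 ratio was 1.10, or 1.59 relative to the median gene, with a read ratio of 2.21 (1.40 to 3.62), and 84.0% of 15050 genes lay lower. Against the female E12.5 and E13.5 IgG libraries the E11.5 ratio was 1.79 and 1.67. The E11.5 call did not pass 2-fold with a pseudocount of 5 CPM. Per kilobase of the tables' gene length, Tex101 had the highest H3K27me3 level of the members. It had 4.39 and 4.5 CPM per kilobase at E12.5 and E11.5, where the other 9 ranged between 0.140 and 1.36. In IgG, Tex101 had 2.04, 1.22 and 1.33 CPM per kilobase at E11.5, E12.5 and E13.5. It was the highest member per kilobase in IgG E11.5 too, but not in the other controls.

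Tex101 lies among genes of the Ly6/uPAR family, to which it belongs. Its nearest measured neighbour, Lypd3, a Ly6/uPAR gene 26.9 kb away, had log2 ratios of 2.09 at E12.5 (397 reads in H3K27me3 and 27 in IgG) and 3.24 at E11.5. On the other side Lypd10, 37.2 kb away, had 0.83 and 1.33, below 2-fold at E12.5. Lypd11 had 0.16 and 0.68, and Cd177 had 0.43 and 0.49. Phldb3, beyond Lypd3, was at -1.09 and -0.45, close to or under the median gene. Tex101 and Lypd3 were thus called higher at both stages, Lypd10 at E11.5 alone, and Phldb3 was called lower at E12.5.

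**Figure D2:**
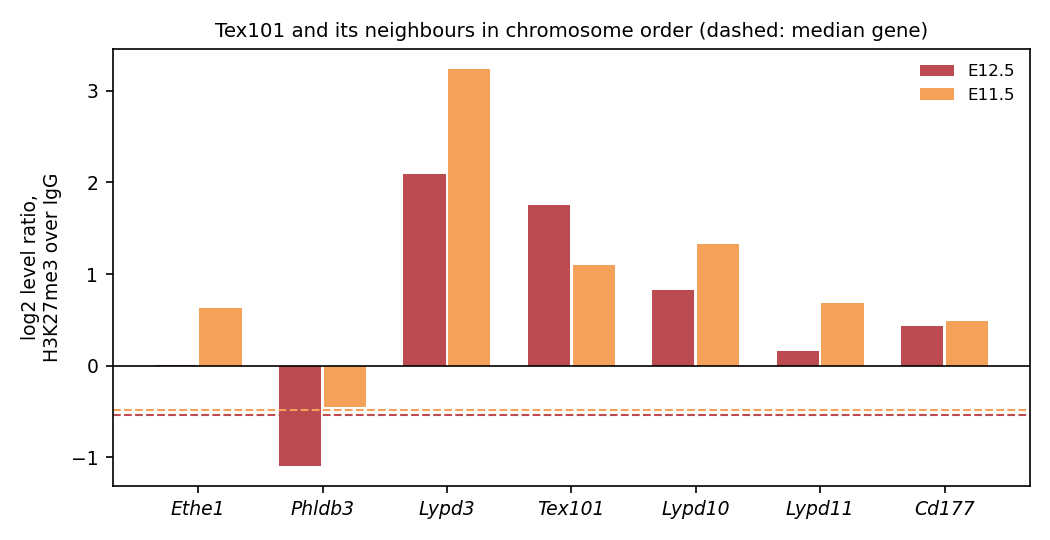
Log2 ratio of H3K27me3 over IgG (pseudocount 1 CPM) for Tex101 and the 3 nearest measured genes on each side, in chromosome order and not to distance, at E12.5 and E11.5; dashed lines mark the median autosomal gene of each stage. Lypd3 (2.09 and 3.24) stands highest at both stages, followed by Tex101 at E12.5 (1.76) and by Lypd10 (1.33) and Tex101 (1.10) at E11.5, and Phldb3 is the one gene below 0 at both stages.

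Slc25a31 encodes the germ-cell form of the mitochondrial ADP/ATP carrier, also called Ant4, and is likewise no piRNA factor. It lies on the plus strand at chr3:40708871-40726094. It had 8.17 CPM (41 reads) in H3K27me3 at E12.5 and 6.79 (16 reads) at E11.5. In IgG it had 5.89 (8 reads) at E11.5, 3.3 (5 reads) at E12.5 and 9.46 (54 reads) at E13.5. The H3K27me3 libraries lie within the range of the controls, and the IgG library of E13.5, the deepest one, is the highest of all 5. Against IgG of the same stage its log2 ratio was 1.09 at E12.5, or 1.63 relative to the median gene, and 0.18 at E11.5, or 0.66 relative to it. The read ratio at E12.5 was 2.48 with an interval of 0.979 to 8.03, which includes equality. Against IgG E13.5 the E12.5 ratio was -0.19, so the call rests on the 5 reads of the E12.5 control, and it was also lost with a pseudocount of 5 CPM. Its neighbours Intu (4.1 kb away) and Hspa4l were at -0.12 and -0.46 at E12.5, and at 0.20 and -0.92 at E11.5.

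Piwil2, or MILI, is a Piwi protein that carries piRNAs in fetal germ cells and cleaves transposon transcripts. It had 30.9 CPM (155 reads) in H3K27me3 at E12.5 and 30.6 (72 reads) at E11.5. In IgG it had 62.6 (85 reads), 68.0 (103 reads) and 67.0 (382 reads) at E11.5, E12.5 and E13.5. Both H3K27me3 values are well under all 3 controls, which agree closely among themselves. The log2 ratio was -1.11 at E12.5 and -1.01 at E11.5, with read ratios of 0.454 (0.352 to 0.589) and 0.488 (0.352 to 0.676). Relative to the median gene the ratios were -0.57 and -0.53, so Piwil2 passed 2-fold only on the scale of all autosomal reads. RefSeq places it at chr14:70372477-70436898, and it has no promoter entry in the sequence table.

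Ddx4, the mouse homologue of fly vasa, is a DEAD-box helicase of germ granules that helps to amplify piRNAs, and lies at chr13:112598333-112652633. It had 26.1 CPM (131 reads) in H3K27me3 at E12.5 and 26.7 (63 reads) at E11.5. In IgG it had 54.5 (74 reads), 52.8 (80 reads) and 72.9 (416 reads) at E11.5, E12.5 and E13.5. As at Piwil2, the H3K27me3 libraries are both below every control. The log2 ratio was -0.99 at E12.5, just short of 2-fold, and -1.001 at E11.5, just past it, with read ratios of 0.494 (0.372 to 0.661) and 0.490 (0.345 to 0.696). Relative to the median gene they were -0.45 and -0.51.

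Mov10l1 is the RNA helicase that feeds precursor transcripts into primary piRNA processing (chr15:88982891-89055152). It had 10.4 CPM (52 reads) in H3K27me3 at E12.5 and 13.6 (32 reads) at E11.5, against 19.15 (26 reads), 18.5 (28 reads) and 23.8 (136 reads) in IgG at E11.5, E12.5 and E13.5. It too lies under every control. The log2 ratio was -0.78 at E12.5 and -0.47 at E11.5, and the read ratio interval lies below 1 at E12.5 (0.348 to 0.922) and includes 1 at E11.5 (0.409 to 1.24). Relative to the median gene these were -0.24 and 0.02.

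Tdrd1 is a Tudor-domain protein that binds Piwi proteins on germ granules, and Asz1, or GASZ, is a scaffold on the outer face of mitochondria that holds those granules. Tdrd1 (chr19:56826171-56870012) had 48.4 CPM (243 reads) in H3K27me3 at E12.5 and 53.0 (125 reads) at E11.5, against 52.3 (71 reads), 70.6 (107 reads) and 55.4 (316 reads) in IgG at E11.5, E12.5 and E13.5. Its H3K27me3 libraries lie at and just under the lower controls, and its ratios were -0.54 at E12.5, the value of the median gene, and 0.02 at E11.5. Asz1 (chr6:18050964-18109061) had 9.16 CPM (46 reads) in H3K27me3 at E12.5 and 12.7 (30 reads) at E11.5, against 17.7 (24 reads), 11.9 (18 reads) and 28.7 (164 reads) in IgG at E11.5, E12.5 and E13.5. The IgG values of Asz1 spread over more than a 2-fold range, and its ratio of -0.34 at E12.5 became -1.55 against IgG E13.5. At E11.5 its ratio was -0.44. Relative to the median gene the ratios of Asz1 were 0.20 and 0.04, on the other side of 0.

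Mael, the mouse Maelstrom protein, is needed to silence LINE-1 elements in male germ cells (chr1:166201385-166238744). It had 17.3 CPM (87 reads) in H3K27me3 at E12.5 and 22.1 (52 reads) at E11.5, against 34.6 (47 reads), 19.8 (30 reads) and 30.3 (173 reads) in IgG at E11.5, E12.5 and E13.5. Its 3 controls spread more widely than its 2 H3K27me3 libraries, which overlap them. The ratio was -0.18 at E12.5 and -0.63 at E11.5, and the E11.5 library set against IgG E12.5 gave 0.15. Of the genes beside Mael, Ildr2, 15.3 kb away, had ratios of 1.90 and 1.78 at E12.5 and E11.5. Gpa33 on the other side had 0.99, just short of 2-fold, and 1.44. High ratios near a member were not particular to Mael. Near Piwil2, Sftpc (84.0 kb away) was at 1.87 at E12.5, while the closer Slc39a14 and Polr3d were at -0.86 and -0.96. Beside Mov10l1, Mapk11 (87.3 kb away) was at 2.67 with 27 reads in H3K27me3 and 0 in IgG, and Mlc1 on the other side was at 0.35. Mael itself was at 0.36 and -0.14 relative to the median gene.

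Dazl, an RNA-binding protein that germ cells need to become competent for meiosis, and Tex19.1, which restrains retrotransposons in germ cells and placenta, had too few reads for a ratio at either stage. Dazl (chr17:50279393-50293620) had 10 and 8 reads in H3K27me3 at E12.5 and E11.5, and 5, 7 and 56 reads in IgG at E11.5, E12.5 and E13.5. As levels these were 1.99 and 3.40 CPM in H3K27me3, against 3.68, 4.62 and 9.82 in IgG. Tex19.1 (chr11:121146143-121148314), a gene of 2172 bases, had 8 and 7 reads in H3K27me3, against 5, 10 and 28 reads in IgG, or 1.59 and 2.97 against 3.68, 6.60 and 4.91 CPM. Both are lower in H3K27me3 than in every control, but against IgG of the same stage most of their 95% intervals of the read ratio include 1. At E12.5 that of Dazl ran from 0.148 to 1.33 and that of Tex19.1 from 0.083 to 0.680. At E11.5 they ran from 0.266 to 3.58 and from 0.220 to 3.22. Against IgG E13.5 those of Dazl lay below 1 at E12.5 (0.092 to 0.401) and E11.5 (0.142 to 0.729). That of Tex19.1 lay below 1 at E12.5 (0.128 to 0.731) and included it at E11.5 (0.223 to 1.42). A difference from IgG E11.5 was not detectable at these 2 genes at this depth.

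**Figure D3:**
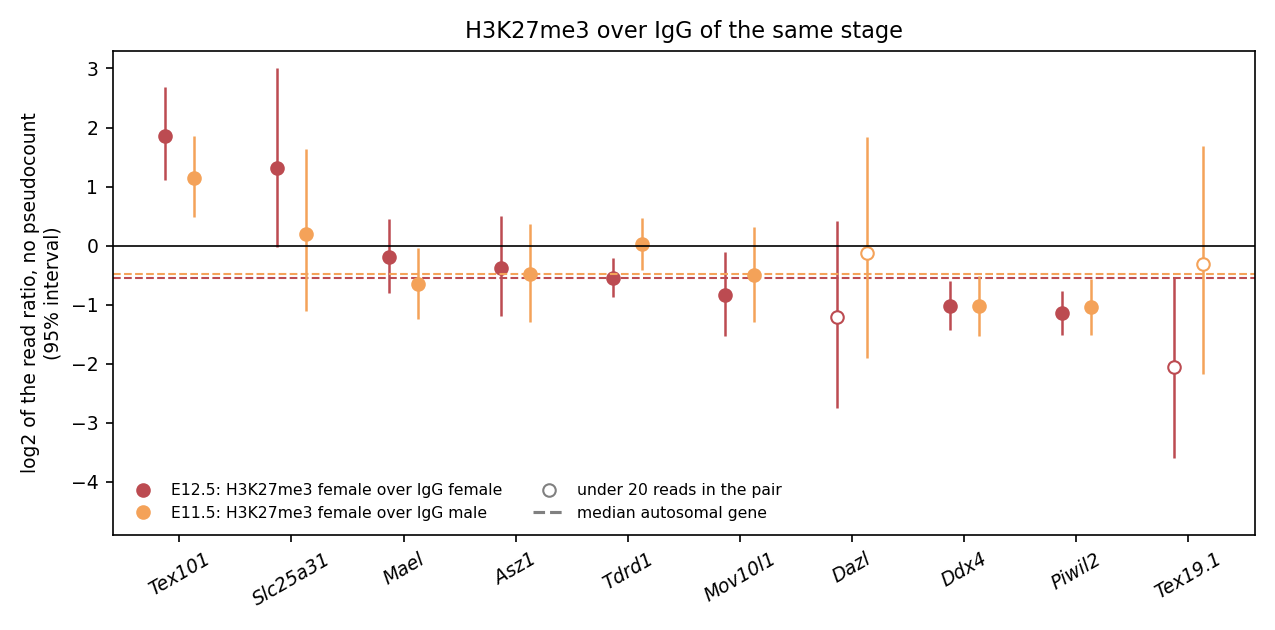
Log2 read ratio of H3K27me3 over IgG of the same stage for the 10 members, without pseudocount and with exact 95% intervals for counting error. Open points have under 20 reads in the pair. Dashed lines mark the median autosomal gene, taken from ratios with 1 CPM added and so not on quite the scale of the points. Tex101 is above 0 at both stages with intervals clear of it, and Ddx4 and Piwil2 are below 0 at both.

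Counted together, 2 of the 8 measured members were at least 2-fold higher in H3K27me3 than in IgG at E12.5 (Tex101 and Slc25a31), where 15.2% of all measured genes were, and 1 was at least 2-fold lower (Piwil2), where 29.5% were. The members' median ratio was -0.44, beside -0.54 for all genes. Relative to the median gene, 2 were at least 2-fold higher (25.5% of all genes) and 0 were at least 2-fold lower (4.71%), with 5 members above the median gene and 3 below it. At E11.5, 1 member was at least 2-fold higher (Tex101; 17.2% of all genes) and 2 at least 2-fold lower (Ddx4 and Piwil2; 29.7%), with a median of -0.46 beside -0.49. Relative to the median gene these were 1 (24.8%) and 0 (7.38%). At neither stage did the members' counts stand far from the share over all genes, although with 8 measured genes a share is known only coarsely.

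The controls differed from each other at the same genes. IgG E13.5 over IgG E12.5 was at least 2-fold higher at 2 of the 10 members, Slc25a31 at 1.28 and Asz1 at 1.21, where 3.72% of 16775 genes were, and at least 2-fold lower at 0 (5.62%). The members' median was 0.40, beside -0.12 for all genes, and 7 of 10 were positive, as were 42.4% of all genes. Set against the E13.5 control, which differs in stage from both H3K27me3 libraries, H3K27me3 E12.5 was at least 2-fold higher at Tex101 alone (1.64; 15.9% of genes) and at least 2-fold lower at 6 members (24.2%): Dazl at -1.85, Asz1 at -1.55, Ddx4 at -1.45, Tex19.1 at -1.19, Mov10l1 at -1.13 and Piwil2 at -1.09. H3K27me3 E11.5 over the same control was at least 2-fold higher at Tex101 (16.8%) and at least 2-fold lower at 4 members (27.2%), which were Ddx4, Dazl, Asz1 and Piwil2. Relative to the median gene of each comparison, the counts lower were 3 for H3K27me3 E12.5 (Dazl, Asz1 and Ddx4) and 0 for H3K27me3 E11.5. Tex101 stayed at least 2-fold higher in both. The share over all genes on that scale was not computed for this control. Dazl and Tex19.1 reached 20 reads here only through the E13.5 control, the deepest one, with 56 and 28 reads there. Dazl had its highest level in that control (9.82 CPM), whereas Tex19.1 was at 4.91 CPM, under its 6.60 in IgG E12.5. Over the female IgG E12.5 library, H3K27me3 E11.5 was at least 2-fold higher at Tex101 (15.2%) and at least 2-fold lower at Piwil2 (31.8%). These comparisons share libraries and are given side by side, not as repeats of each other. In the ratios to IgG E11.5, antibody and sex cannot be told apart, since that control is male.

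Between stages, H3K27me3 at the members stayed within 2-fold. E12.5 over E11.5 was at least 2-fold higher at 0 of 8 measured members, where 0.756% of all genes were, and at least 2-fold lower at 0, where 0.787% were. The ratios ran from -0.43 at Asz1 to 0.23 at Slc25a31, with a median of -0.08 beside 0.01 for all genes, and all 8 read ratio intervals include 1. Tex101 was at -0.04 (read ratio 0.974, 0.756 to 1.26), Piwil2 at 0.01 (0.759 to 1.36) and Ddx4 at -0.03 (0.717 to 1.34). For these 3 a change of 1.5-fold or more lies outside the interval of counting error.

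Other germline genes were listed to set the members in context. Of 25 other piRNA pathway genes measured at E12.5, 4 were at least 2-fold higher in H3K27me3 and 5 at least 2-fold lower, with a median of -0.37; at E11.5 these were 4 and 7 of 22, with a median of -0.63. The highest at E12.5 were Dnmt3l, a cofactor of de novo DNA methylation (2.34, and 2.60 at E11.5), Tdrd6, a Tudor-domain protein of the chromatoid body (1.76 and 2.85), and Kif17, a kinesin (1.71 and 2.27). The lowest were Pld6, a mitochondrial protein of piRNA biogenesis (-1.38), Tdrd5 (-1.33) and Tdrd12 (-1.11). Nanos2, which directs male germ cells, was at 0.69 and 2.05, and Piwil1, a Piwi protein of the adult testis, was at 0.78 and 0.90; both were named after their values were seen. Dnmt3l, Tdrd6 and Kif17 were thus at least 2-fold higher at both stages, as Tex101 was among the members.

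Of 22 meiotic chromosome genes, 2 were at least 2-fold higher and 3 at least 2-fold lower at E12.5, with a median of -0.43, and 4 and 7 at E11.5, with a median of -0.50. Mei1 (1.36), Syce3 of the synaptonemal complex (1.03) and Prdm9, which sets recombination hotspots (0.86), were the highest, and Hormad2 (-1.19), the meiotic cohesin Rec8 (-1.15) and the break-forming Spo11 (-1.02) the lowest. Markers of PGCs had 0 of 9 measured genes at least 2-fold higher at E12.5 and 4 at least 2-fold lower, with a median of -0.98 from Nanos3 at -1.39 to Pou5f1 at 0.02. With IgG E13.5 as the control, 0 of 9 were at least 2-fold higher and 1 at least 2-fold lower, with a median of -0.50. Of 10 somatic gonad genes, 9 were measured at E12.5, and all 9 were at least 2-fold higher. Their median was 2.03, from Nr5a1 at 1.25 to Nr2f2 at 3.06. Against IgG E13.5 all 10 were measured, and 9 were at least 2-fold higher with the lowest gene at -0.04. As with Hox genes, a gene without enrichment was less likely to be measured. Blood and endothelial genes had 2 of 8 at least 2-fold higher, Tal1 (2.76) and Runx1 (1.35), and 1 at least 2-fold lower, Pecam1 (-1.27). Among Hox genes the highest at E12.5 were Hoxb1 (79 reads in H3K27me3 and 0 in IgG), Hoxd3 (880 and 17 reads) and Hoxb5 (54 and 0 reads), and Hoxd8 (35 and 4 reads) and Hoxb8 (57 and 7 reads) were among the lowest. Among housekeeping genes Rpl13a (-0.73) and Vcp (-0.76) were among the highest, and the lowest were Gapdh (-1.68), Rplp0 (-1.59) and Eef1a1 (-1.27). Reads over a gene in CUT&RUN are not its expression, and the part of other cell types in the levels of the members was not tested.

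**Figure D4:**
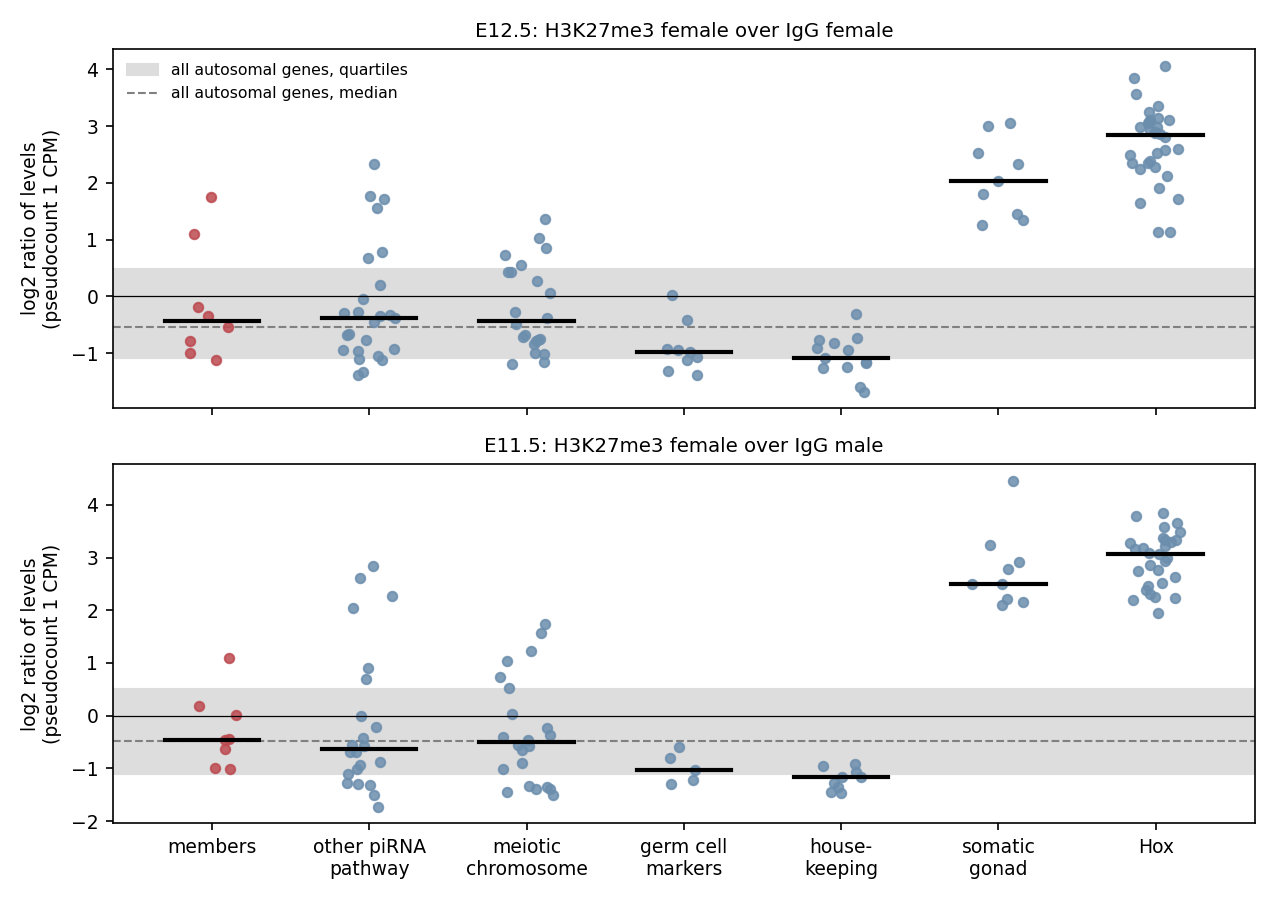
Log2 ratio of H3K27me3 over IgG (pseudocount 1 CPM) per gene at E12.5 (top) and E11.5 (bottom), for the members and 6 other gene lists; black bars are list medians, the grey band spans the quartiles of all autosomal genes and the dashed line is their median. Most members lie in the band, with Tex101 at 1.76 and 1.10 above it, while the measured Hox and somatic gonad genes are all above it.

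By level alone, the genes most like the members were Cadm1, Fbxw25 and Ppp4r4. Likeness was the Euclidean distance between log2 levels over the 5 libraries, centred per gene, from the mean profile of the 5 members with at least 20 reads in each (Ddx4, Mael, Tdrd1, Piwil2 and Mov10l1). The distances were 0.0766, 0.0890 and 0.0926, among 10042 other genes with a median of 0.771. The 5 members themselves were at 0.185 (Mov10l1) to 0.707 (Tdrd1), so Tdrd1 lies nearly as far from the mean profile as the median gene.

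The allele share is the percent of a gene's reads on the second allele, in the tables' order, since which strain that is was not stated. It was tested per library against the pooled autosomal share, which was 50.9% and 51.6% in H3K27me3 at E12.5 and E11.5 and 50.8%, 51.1% and 51.3% in IgG at E11.5, E12.5 and E13.5. The exact two-sided binomial test was adjusted by Benjamini-Hochberg over all autosomal genes with at least 10 reads, and it speaks of the reads of 1 library, not of a condition. In H3K27me3 at E12.5, 1 of 9 tested members was called toward the second allele (Slc25a31; 9.48% of all genes) and 0 toward the first (7.98%). At E11.5, 1 of 8 was called toward the second (Slc25a31; 6.69%) and 1 toward the first (Tex101; 4.98%). In IgG, 0 members were called at E11.5 (3.21% of genes toward the second and 0.456% toward the first) and 0 at E12.5 (3.19% and 0.28%), with 1 member at an unadjusted p under 0.05 in each, Mael and Piwil2. At E13.5, 1 of 10 was called toward the second allele (Slc25a31; 5.84%) and 0 toward the first (2.03%).

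Slc25a31 had every read on the second allele in every library. These were 41 of 41 reads in H3K27me3 at E12.5 and 16 of 16 at E11.5, and 8 of 8, 5 of 5 and 54 of 54 in IgG at E11.5, E12.5 and E13.5. The adjusted p of the exact binomial test was 3.52e-11, 0.000588 and 1.44e-14 in the 3 libraries with at least 10 reads. The share is as one-sided in IgG as in H3K27me3. Over all libraries it had 124 of 124 reads on the second allele. Of 14604 autosomal genes with at least 100 reads in all, 28 (0.192%) had all of them on the second allele and 0 had all on the first.

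In H3K27me3, Tex101 had 84 of 191 reads on the second allele at E12.5 (44.0%, exact 95% interval 36.8% to 51.3%) and 33 of 92 at E11.5 (35.9%, 26.1% to 46.5%). In IgG it had 41.7% of 24 reads, 68.8% of 16 reads and 47.0% of 66 reads on the second allele at E11.5, E12.5 and E13.5. The E12.5 share of H3K27me3 lies inside the range of the controls and the E11.5 share below it, and the controls' own intervals are wide. The adjusted p of the exact binomial test was 0.223 at E12.5 and 0.0309 at E11.5. Against IgG of the same stage, Fisher's exact test gave an adjusted p of 0.532 at E12.5 and 1 at E11.5. Each allele on its own was higher in H3K27me3 than in IgG, though the control reads per allele were few. With reads of the first allele only, the log2 ratio at E12.5 was 2.52 (107 reads in H3K27me3 and 5 in IgG). With reads of the second allele only it was 1.15 (84 and 11 reads). At E11.5 the first-allele ratio was 1.26 and the second-allele ratio was 0.86, below 2-fold.

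At the remaining 8 members no share passed the test in any library. In H3K27me3 at E12.5, Ddx4 had 39.7% of 131 reads on the second allele (adjusted p = 0.0605, exact binomial test) and Asz1 had 69.6% of 46 reads (adjusted p = 0.0645). At E11.5 the shares were 44.4% of 63 reads at Ddx4 and 50% of 30 reads at Asz1. Piwil2 was at 52.3% and 50% at E12.5 and E11.5, Tdrd1 at 51.9% and 55.2%, Mov10l1 at 55.8% and 50%, and Mael at 55.2% and 63.5%. Dazl and Tex19.1 had at most 10 reads in an H3K27me3 library, and their shares have intervals too wide to place. Fisher's exact test, which compares the reads of 2 libraries and not 2 conditions, of H3K27me3 against IgG called 0 of 7 tested members at E12.5 (1.04% of all genes higher and 1.31% lower) and 0 of 7 at E11.5 (1.32% and 0.853%). Between E12.5 and E11.5 it called 0 of 8 (0.15% and 0.379%). In all 3 of these comparisons 0 members had an unadjusted p under 0.05. With IgG E13.5 as the control at E12.5, 2 members did, Ddx4 and Asz1, and the lowest adjusted p by the same exact test was 0.11.

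**Figure D5:**
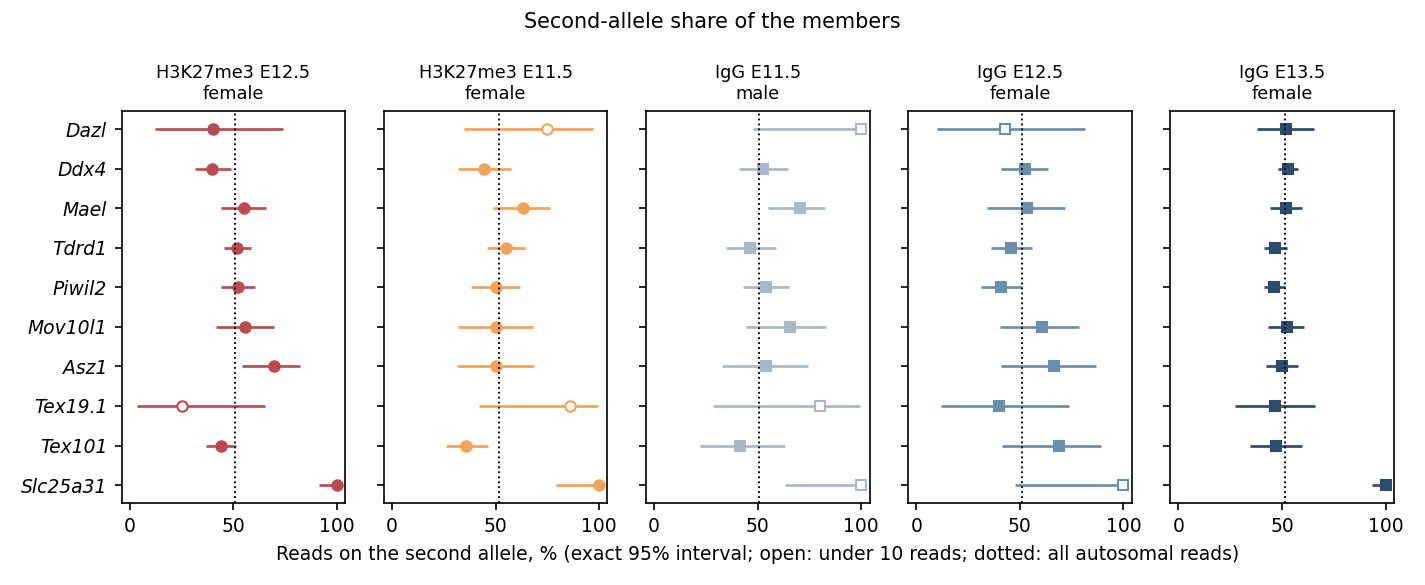
Percent of reads on the second allele at each member, 1 panel per library, with exact 95% intervals; open points have under 10 reads and the dotted line is the pooled share of all autosomal reads. Slc25a31 is at 100% in all 5 libraries, and Tex101 at E11.5 in H3K27me3 (35.9%) lies left of the line.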

How the data were processed

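CUT&RUN libraries of sorted PGCs were made with 15 cycles of PCR, per the labels' protocols. The submitters' processing notes name the build mm10 and, without roles or settings, the tools Bowtie2 2.4.2, featureCounts, SAMtools 1.11, Trim Galore 0.6.6, cutadapt 4.1, GATK, MACS2 2.2.7.1, deepTools 3.5.1, FastQC 0.11.9 and MultiQC 1.13. How duplicates were treated, and how reads were assigned to alleles, is not given in the sources used here. The authors deposited, per gene and library, whole-number counts of reads on each allele, not normalised, and the fraction of them on the second allele. They also deposited a gene length, used for levels per kilobase. Gene positions and promoters are RefSeq's on GRCm38.p6, of which mm10 is another name. For 71.3% of 20120 autosomal genes matched by symbol, the tables' length was within 5% of RefSeq's span.

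Levels, ratios, shares and tests were computed from the counts with Python 3.11.15, pandas 2.3.3 and scipy 1.17.1, and were tested on simulated data. Scaling alternatives used edgeR 4.0.16 (TMM) and DESeq2 1.42.0 (size factors) in R 4.3.3; neither was used for a test, since no group has a second library. All 10 members are named, and from the other piRNA, meiotic, Hox and housekeeping lists the 3 highest and 3 lowest genes by the E12.5 ratio, except 2 genes that are not reported here. From the marker lists only the ends or the called genes are named. The members and the lists were chosen with earlier results of these data known.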

Additional observations from a re-analysis of the deposited data

How the results depend on the processing

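No paired analysis was possible because each group had 1 library with a table, and for the same reason no replicate could be left out. Of 99 alternative counts of members, 73 stayed within 1.5 times the reported count and 26 did not. Of 372 alternative values of single members, 348 moved by less than counting error or kept their call, 22 moved further, 1 called ratio changed sign and 1 share lost its call. Of the 251 alternative level ratios among them, 25 changed sign, and 24 of these were ratios under 2-fold as reported (absolute log2 at most 0.63), such as Mael and Asz1 at E12.5 with TMM factors (0.33 and 0.15).

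At E12.5 the count of members at least 2-fold lower, 1 as reported, was 0 with TMM factors, with DESeq2 size factors and centred on the median gene. It was 2 with a pseudocount of 0.25 and with no minimum of reads, and 3 at 1.5-fold. It was 6 with IgG E13.5 or with the IgG libraries pooled. The 6 with IgG E13.5 were of 10 measured members, where the reported 1 was of 8, and 24.2% of all genes were lower there. They included Dazl and Tex19.1, which were measured only through the reads of that control. The pooled libraries contain that control too, and the share over all genes was not computed for them. The count at least 2-fold higher, 2 as reported, was 1 with a pseudocount of 5, a minimum of 50 reads, first-allele reads only, IgG E13.5 or pooled IgG. Slc25a31 had every read on the second allele, so with first-allele reads only its loss was fixed in advance. The called ratio that changed sign was Slc25a31, at -0.19 with IgG E13.5.

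At E11.5 the count lower, 2 as reported, was 0 with TMM factors, DESeq2 size factors, centring, a pseudocount of 5 or first-allele reads only. It was 4 with IgG E13.5 and 1 with IgG E12.5. The 4 were of 10 measured members and included Dazl, where the reported 2 were of 8, and 27.2% of all genes were lower there. The count higher, 1 as reported, was 0 with a pseudocount of 5 and with second-allele reads only. Tex101 ranged over the alternatives between 1.15 and 2.52 at E12.5, and between 0.86 and 1.79 at E11.5.

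For E12.5 over E11.5, first-allele reads only gave 1 member at least 2-fold lower, Asz1 at -1.08. With IgG E11.5 and E12.5 only, chosen after seeing the data, 2 members had both H3K27me3 libraries above every control (Tex101 and Slc25a31). That choice leaves out IgG E13.5, the library in which Slc25a31 was highest (9.46 CPM). The share over all genes was not computed for it, so the count has no background beside it. Of the 2 share calls in H3K27me3 at E11.5, 1 remained with a minimum of 20 reads and 1 with an expected share of 50%, where Tex101 had an adjusted p of 0.0715 in the exact binomial test. Depth limits Dazl and Tex19.1 most, and the causes of these changes were not tested.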
